A study of Mus musculus with 15 samples.

Results

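The endothelial cells of normal adult mouse retina were profiled on 6 arrays, all those labelled as wild type among the 15 arrays of the study. These 6 were chosen by their titles alone and describe the unperturbed vessel wall, with no contrast to a mutant. Each array carried RNA from a pool of 5 to 10 adult mice on a mixed C57Bl6/129 background, with endothelial cells acutely purified from the retina on beads bearing an antibody to PECAM. Mice of both sexes are given for every pool. The pools, called wild type 1 to wild type 6, carried no treatment and no mutant allele that the labels name. A pool averages over its mice, so the spread between pools tends to be smaller than that between animals, and nothing in the labels says whether pools were collected on separate days. No test was made, because all 6 arrays belong to a single group; the text gives each gene's level and its spread over the pools.

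The vessels of the inner retina carry the blood-retina barrier. Their endothelial cells are sealed to each other by tight junctions, take up little fluid by vesicles, and let nutrients through with carrier proteins while efflux pumps return drugs to the blood. In mouse retina this state depends on the secreted ligand Norrin, made by Muller glia, which binds the receptor Frizzled4 with the coreceptor Lrp5 and the tetraspanin Tspan12 on endothelial cells and stabilizes beta-catenin. Purified retinal endothelium is also handled for some time between animal and lysis, and pericytes, glial end feet and macrophages lie against the same vessel wall.

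Signals are on a log2 scale, so that a difference of 1 is 2-fold. A probe set's signal depends on how well its probes hybridize as well as on the RNA, and levels of different genes are therefore ranks of brightness on this array and not of abundance. To place a level, 109 genes of olfactory, vomeronasal and trace amine receptors and keratin-associated proteins, families with little known expression in endothelium, served as a measure of background. In each array the 95th percentile of these genes was taken as the background line. The line lay at 5.75 to 6.14 in 5 pools and at 7.08 in wild type 4.

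Wild type 4 stood apart from the other 5 arrays. It had 8431 genes above its line against 10567 to 11258 in the others, and an upper quartile of 9.08 against 9.34 to 9.41. The hybridization control BioB 3′ was brightest there, at 12.27, with 10.69 in wild type 3 and 11.21 to 11.67 in the remaining pools. Pairs of pools correlated at 0.9621 to 0.9923 over all 18194 genes, and at 0.9818 or more without wild type 4. The gap between the 3′ and 5′ signals of actin ran from 0.69 to 1.04 over the 6 arrays, with 0.88 in wild type 4. That of Gapdh was widest in wild type 4, at 1.31, against 0.97 to 1.14 in the others. Because wild type 4 had the lowest signal of 50.1% of genes, counts of variable genes are given with and without it. Their share due to labelling or hybridization was not tested.

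The 4 genes that mark this endothelium were bright in every pool. Pecam1, the adhesion molecule used for the purification, read 11.67, 11.64, 11.61, 11.80, 11.53 and 11.29 in wild type 1 to 6. Cldn5, the main claudin of the barrier, read 13.06, 13.06, 12.94, 13.05, 13.15 and 12.92 in the same order. Slco1c1, which carries thyroxine, read 13.10, 12.97, 12.93, 13.10, 12.99 and 12.95, and Slc38a5, a glutamine carrier typical of Norrin-dependent retinal endothelium, read 10.50, 10.42, 10.22, 10.33, 10.29 and 10.33. The lowest of these 24 values was 10.22, far above every array's line, and no marker differed by 2-fold between any pair of pools.

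Of 18194 genes, 8227 (45.2%) were above the line in all 6 pools and 11884 (65.3%) in at least 1. Among those 11884 genes, 3665 (30.8%) differed at least 2-fold between the lowest and the highest pool; among the 8227 genes above in all pools, 1377 (16.7%) did. With the lowest and the highest pool both set aside, 432 genes (3.64%) spanned 2-fold between the second lowest and the second highest. Without wild type 4, 1856 genes (15.6%) did over the other 5 pools. The median SD over the 6 pools was 0.22 for genes above the line in every pool and 0.43 for genes above it in some.

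The highest signal fell in wild type 1 for 22.5% of the 11884 genes, in wild type 2 for 10.1%, in wild type 3 for 26.2%, in wild type 4 for 10.6%, in wild type 5 for 19.5% and in wild type 6 for 11.1%. The lowest fell in wild type 1 for 6.81%, in wild type 2 for 5.71%, in wild type 3 for 14.7%, in wild type 4 for the 50.1% named above, in wild type 5 for 12.4% and in wild type 6 for 10.3%. Counts of list members that peak or bottom out in a pool are read against these shares. Likewise, members above the line in all pools are read against 45.2% of all genes, and those past 2-fold against 30.8%. Where only members above the line in all pools are counted, those past 2-fold are read against 16.7%.

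Among the 30 brightest genes were 9 ribosomal protein genes, led by Rpl41 at 14.18 ± 0.04 (SD, n = 6, as for every ± below) and Rplp2 at 14.05 ± 0.07. Housekeeping and cytoskeletal genes made up much of the rest: Tmsb4x (14.02 ± 0.04), which binds free actin, the elongation factor Eef1a1 (13.83 ± 0.03), the actin-severing protein Cfl1 (13.69 ± 0.11) and the filament protein Vim (13.66 ± 0.04). Genes of the vessel wall ranked among them. Mgp, an inhibitor of calcification, read 13.76 ± 0.06, the matrix proteins Sparc and Spock2 read 13.75 ± 0.15 and 13.57 ± 0.09, and Slc2a1, the glucose carrier of the barrier, read 13.75 ± 0.12. Ly6e (13.57 ± 0.03), Ifitm3 (13.58 ± 0.05), B2m (13.59 ± 0.04) and Cst3 (13.79 ± 0.05) were there as well. Fos at 13.65 ± 0.08, Egr1 at 13.79 ± 0.06 and Dusp1 at 13.58 ± 0.10, which cells switch on within minutes of a stimulus, were as bright as these. The remaining members were Rpl38, Rps3a1, Rpl35, Rpl7a, Rpl27a, Rpl4, Rpl19, Tpt1, Hspa8, Sgk1, Mrfap1, Sod1 and Kdm6b. None of the 30 reached 2-fold between pools. The last of them, Kdm6b, averaged 13.53, and the next gene in the ranking 13.53. Signals this high lie near the upper end of the array's scale, where differences are compressed. Kdm6b ranked there on a probe set of the cross-hybridizing kind (_x_at). Its other probe sets were far dimmer, at 6.43 to 9.37 and 4.53 to 7.23, so its place is uncertain.

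On the brightest probe set of each gene, the 10 steadiest genes above the line in all pools had SDs of 0.014 to 0.027. Rps29 and Rpl27a encode ribosomal proteins, Tpt1 a growth-related protein, Pdcd4 an inhibitor of translation, Psma3 a proteasome subunit, Chmp5 a part of the membrane-sorting complex and Adipor1 the adiponectin receptor. Sypl, Arfgef1 and Shank3 completed the group. Shank3, a scaffold protein best known from synapses, held at 9.64 to 9.70 and was the dimmest of the 10. Dimmer probe sets above the line in every pool were less steady for Adipor1 and Arfgef1. That of Adipor1 ran from 9.33 in wild type 4 to 10.54 in wild type 2, and that of Arfgef1 from 6.68 in wild type 1 to 7.695 in wild type 3.

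**Figure D1:**
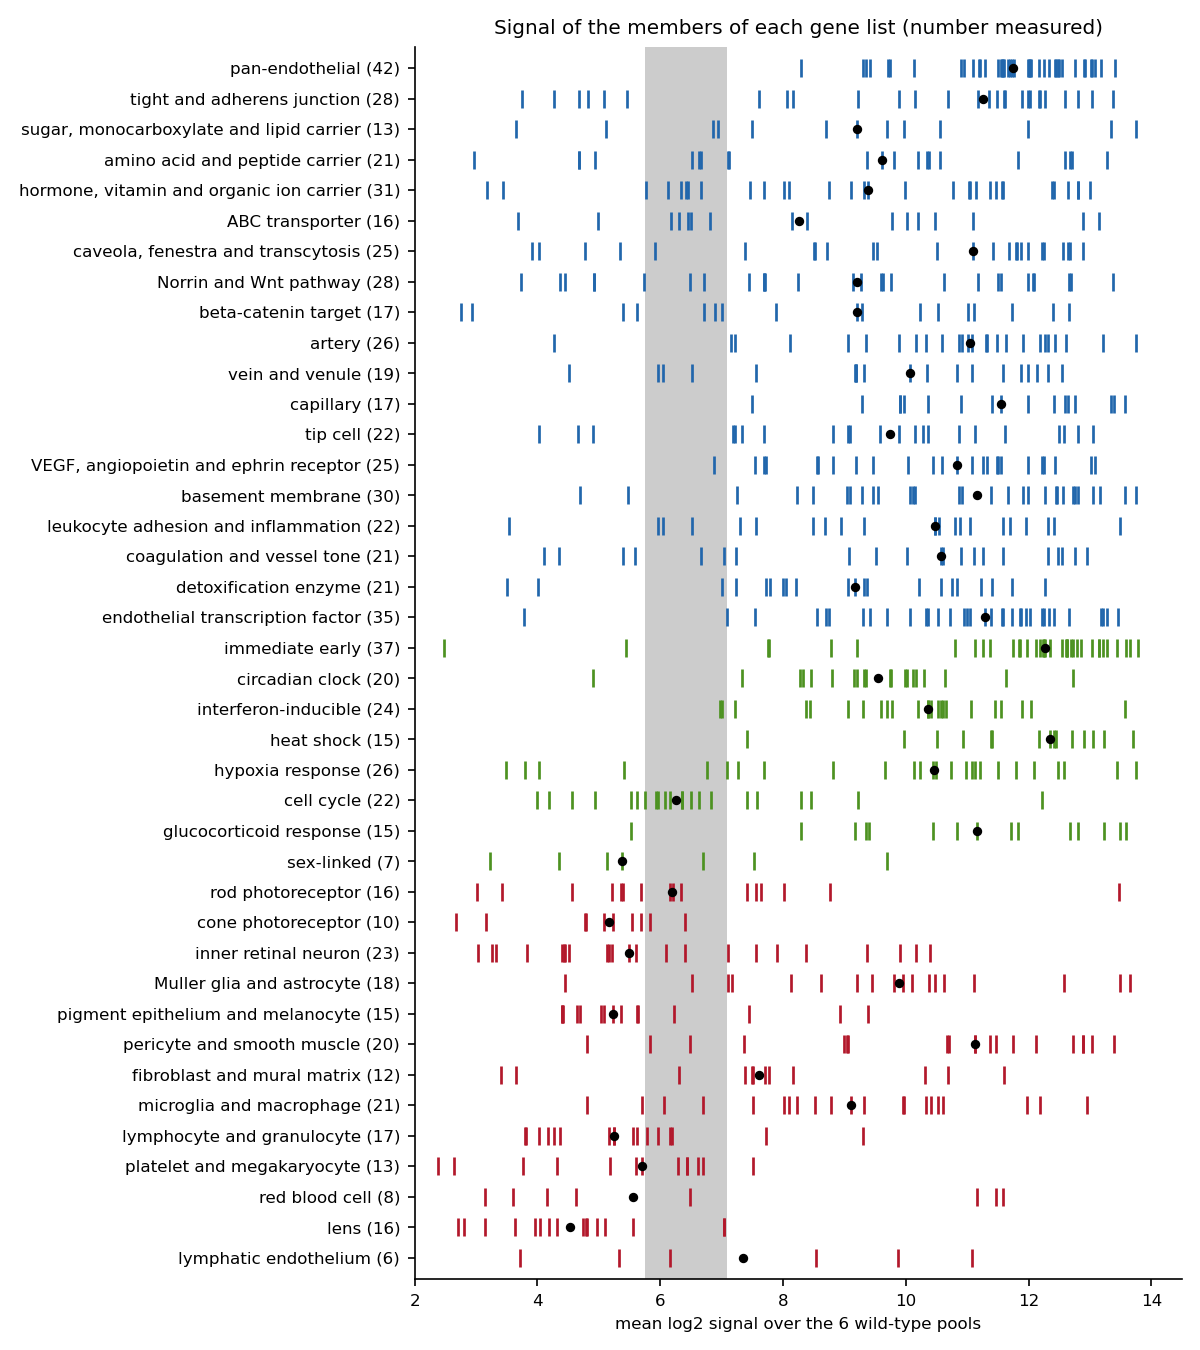
Mean log2 signal over the 6 wild-type pools (horizontal axis) of each measured member of 40 gene lists (1 tick a gene; blue for endothelial lists, green for cell states, red for other cell types), with each list's median as a black point and the number measured in brackets. The grey band spans the background line of the 6 arrays, 5.75 to 7.08. All 42 pan-endothelial genes lie to the right of it, whereas cone, lens and platelet genes lie mostly within or left of it.

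All 42 pan-endothelial genes measured were above the line in all 6 pools, against 45.2% of all genes, and 35 of them were in the brightest 10.0% of genes. The angiopoietin receptor Tek averaged 13.02 ± 0.07, the phosphatase Ptprb 13.41 ± 0.09, the VEGF receptor Flt1 13.09 ± 0.12 and its relative Kdr 11.55 ± 0.28. Cdh5, the cadherin of endothelial junctions, read 11.37 to 11.77 over the pools, and Tie1, Emcn, Esam, Cd34, Cd93, Mmrn2 and Ramp2 averaged between 11.998 and 12.91. Only 2 of the 42 varied 2-fold, against 16.7% of the genes above the line in all pools. Nostrin, which traffics the nitric oxide synthase, ran from 10.39 in wild type 5 to 11.79 in wild type 4. Pcdh12, a vascular protocadherin, ran from 7.38 in wild type 3 to 9.07 in wild type 2. The mean of the list differed by 0.19 between the highest pool (wild type 2) and the lowest (wild type 3). Of the 42 genes, 20 were lowest in wild type 3, against 14.7% of all genes.

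Receptors and ligands that govern vessel growth were mostly above background. 23 of 25 genes of the VEGF, angiopoietin, ephrin and TGF-beta families were above the line in all pools. Of the 25, 3 varied 2-fold, against 30.8% of all genes, and of the 23, 2 did, against 16.7%. None did once wild type 4 was left out, against 15.6%. The median SD of the family genes was 0.22, with 0.15 for the pan-endothelial list and 0.22 for all genes above the line in every pool. Among receptors, Nrp1 averaged 12.43 ± 0.14, Flt4 11.08 ± 0.15, Bmpr2 12.25 ± 0.09 and Acvrl1 11.33 ± 0.13. Among ligands, Vegfc read 9.73 to 11.18, with the lowest value in wild type 4. Vegfa averaged 7.70 ± 0.26 and Angpt2, the antagonist ligand of Tek, 8.81 ± 0.23. A dimmer probe set of Angpt2 varied more, with 6.40 in wild type 4, 7.40 in wild type 1 and 8.57 in wild type 5, the highest.

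Transcription factors of the endothelial lineage were present as a set: 33 of 35 were above the line in all pools. Erg (9.31 ± 0.18), Fli1 (11.29 ± 0.19), Ets1 (12.25 ± 0.18) and Ets2 (13.19 ± 0.09) are ETS factors, and Sox17 (11.73 ± 0.12), Sox18 (10.95 ± 0.21) and Sox7 (11.57 ± 0.25) the SOX factors of vessels. Factors tied to the central nervous system barrier included Foxf2 (10.07 ± 0.24), Foxq1 (11.96 ± 0.14), Foxl2 (8.70 ± 0.14) and Lef1 (12.66 ± 0.13). Epas1, the hypoxia-inducible factor of endothelium, was steady at 13.40 to 13.55. 2 of the 35 varied 2-fold, Lyl1 and Meox1. Lyl1 ran from 6.49 in wild type 4 to 7.60 in wild type 1, and Meox1 from 7.88 in wild type 3 to 9.26 in wild type 4. Meox2 was below the line in every pool, at 3.21 to 5.14.

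Junction genes divided into those above and those below background. Of 28 measured, 21 were above the line in all pools and 15 were in the brightest 10.0%. Besides Cldn5, these included the tight junction protein Ocln (11.998 ± 0.21), the scaffold Tjp1 (12.81 ± 0.14), the adhesion molecules Esam (12.18 ± 0.08) and Jam2 (11.18 ± 0.09), and the tricellular junction proteins Lsr (11.48 ± 0.11) and Ildr2 (10.69 ± 0.14). At adherens junctions Ctnnb1 averaged 13.38 ± 0.12, Jup 12.03 ± 0.17 and Cdh2 11.35 ± 0.20. Cldn12 was above the line at 8.74 to 9.56. Cldn1, from 3.25 to 4.39, and the scaffolds Tjp3 and Cgn were below it in every pool. Cldn3 was below it too on its brightest probe set, from 5.24 to 5.96, though another of its probe sets passed the line in wild type 3, at 6.18. By contrast, Cgnl1, the relative of Cgn, averaged 11.89 ± 0.06. The arterial gap junction gene Gja5 was below the line at 4.06 to 4.62, with Gja1 at 12.59 ± 0.11 and Gja4 at 9.89 ± 0.24. 1 of the 28 junction genes varied 2-fold: Marveld2, from 6.79 in wild type 4 to 8.52 in wild type 3, which fell below the line in 1 pool.

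Among nutrient carriers, the bright ones were those long assigned to the barrier. Slc2a1, for glucose, ranged over 13.62 to 13.90, and Slc16a1, for lactate and ketone bodies, over 13.16 to 13.65. Mfsd2a, which imports lipids bound for the nervous system and holds back vesicle transport, read 11.87 to 12.17. Slc7a5 and Slc3a2, the paired chains of the large neutral amino acid carrier, averaged 12.59 ± 0.16 and 12.67 ± 0.05. Slc7a1, for cationic amino acids, averaged 13.28 ± 0.14, and Slc6a6, for taurine, 12.72 ± 0.12. Slc7a11, the cystine exchanger, was below the line at 4.57 to 4.75, as were Slc43a1 (2.63 to 3.10) and the intestinal glucose carrier Slc5a1 (3.48 to 4.02). In all, 9 of 13 carriers of sugars, monocarboxylates and lipids and 12 of 21 of amino acids and peptides were above the line in all pools, against 45.2% of all genes.

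Of the 17 amino acid carriers above the line in any pool, 6 varied 2-fold, close to the 30.8% of all genes, and 3 did without wild type 4, against 15.6%. 3 of the 6 are ones that Muller glia and astrocytes use for glutamate and glycine. Slc1a3, a glutamate carrier, ran from 9.23 in wild type 6 to 10.55 in wild type 1, while a dimmer probe set of it above the line was highest in wild type 4, at 8.23, and lowest in wild type 3, at 7.05. Slc1a2 ran from 5.49 in wild type 6 to 7.51 in wild type 1, while another probe set of it was highest in wild type 4, at 7.86, and lowest in wild type 6, at 5.57. Slc6a9, a glycine carrier that neurons of the inner retina also use, ran from 8.76 in wild type 4 to 9.78 in wild type 1. The glial genes described further on had their highest list mean in wild type 1 as well, but several of them were also high in wild type 4, where Slc6a9 was lowest. The glial share of these carriers was not tested.

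Carriers for hormones, vitamins and metals were above the line in all pools for 22 of 31 genes. Slco1a4 and Slco2b1, organic anion carriers, averaged 12.81 ± 0.14 and 11.46 ± 0.21, and Slc22a8 10.76 ± 0.25. Tfrc, the transferrin receptor, averaged 12.64 ± 0.19 and the iron exporter Slc40a1 11.14 ± 0.25. Slc19a3 takes up thiamine (11.04 ± 0.16), Slc52a3 riboflavin (11.57 ± 0.23), Slc39a10 zinc (12.81 ± 0.12) and Stra6 retinol (11.03 ± 0.18). Slco2a1, a prostaglandin carrier of other vascular beds, stayed near the line at 5.62 to 6.98, and Slc22a6 and Slc28a3 were below it.

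Of 16 ABC transporters, 9 were above the line in every pool, against 45.2% of all genes. The drug pumps Abcb1a, at 13.08 to 13.18, and Abcg2, at 12.71 to 13.04, were the brightest of them on this array. Abcc4 averaged 11.10 ± 0.11. Abcb1b, the second mouse gene for the same kind of pump, was near the line at 5.78 to 7.12, and Abcc2 was below it in every pool (3.13 to 5.27). Abcc1 was lowest in wild type 4 at 7.09 and lay at 8.09 to 8.53 elsewhere.

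Plvap, the protein of the diaphragms that close fenestrae and the vesicles of leaky vessels, was near background. It read 5.85, 5.26, 6.01, 5.41, 4.69 and 4.82 in wild type 1 to 6, above the line only in wild type 3. The coat proteins of caveolae were bright nonetheless: Cav1 averaged 11.79 ± 0.15, Cav2 12.24 ± 0.11, Cavin1 11.82 ± 0.11, Cavin2 12.67 ± 0.10 and Ehd2 12.21 ± 0.06. The muscle forms Cav3 and Cavin4 were below the line in all pools. Receptors of transcytosis were present, with Lrp8 at 11.68 ± 0.16, Insr at 10.52 ± 0.18 and Fcgrt, which returns antibodies to the blood, at 11.42 ± 0.11; Lrp2, the large scavenger receptor of epithelia, was below the line at 3.47 to 4.90. Vldlr, a lipoprotein receptor, was the widest of the group, from 7.10 in wild type 5 to 10.46 in wild type 4, a 10.3-fold range. That value came from a probe set of the cross-hybridizing kind (_x_at). Vldlr was also among the 30 most variable genes above the line in all pools. Of those 30, 22 were highest in wild type 4, against 10.6% of all genes, and 16 lowest in wild type 5, against 12.4%. Whether its range is particular to Vldlr was not tested.

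The receiving side of the Norrin pathway was expressed and the sending side was not detected. Fzd4 read 12.26, 12.17, 11.87, 12.17, 11.80 and 12.27 in wild type 1 to 6, Lrp5 7.68, 7.58, 7.93, 7.95, 7.22 and 7.75, and Tspan12 9.65, 9.86, 9.87, 9.18, 10.004 and 9.96. All were above the line in every pool, and none varied 2-fold. Lrp6, the sister coreceptor, averaged 11.55 ± 0.16, and Adgra2 and Reck, which together receive Wnt7 signals in brain vessels, averaged 11.17 ± 0.18 and 11.51 ± 0.14. The ligands Ndp (4.28 to 4.81), Wnt7a (4.12 to 4.74) and Wnt7b (4.75 to 5.21) were below the line in all pools. Of the other frizzleds, Fzd6 was bright at 12.07 ± 0.18 and Fzd9 and Fzd10 were below the line.

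Downstream, Lef1 averaged 12.66 ± 0.13, Tcf7l2 10.63 ± 0.13 and Tcf7l1 8.25 ± 0.47. Genes that beta-catenin is known to switch on were also above the line: Apcdd1, an antagonist of Wnt signals, at 12.40 ± 0.23, Axin2, the feedback inhibitor, at 10.52 ± 0.33, Tnfrsf19 at 11.11 ± 0.29 and Sox17 as given above. Notum, Rnf43 and Wif1 were below it in every pool. Of the 23 pathway genes above the line in any pool, 13 were lowest in wild type 4, against 50.1% of all genes. Pathway members past 2-fold numbered 6 of 23, against 30.8% of all genes, and 2 without wild type 4, against 15.6%. The mean of the list spanned 0.37 over 6 pools and 0.10 over the 5 others.

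Genes of arteries, veins and capillaries were mostly above background, and the proportions of the segments cannot be read from these signals. Arterial genes above the line in every pool numbered 22 of 26. They included the Notch pathway genes Dll4 (9.05 ± 0.35), Hey1 (12.26 ± 0.15), Jag1 (11.91 ± 0.05) and Notch4 (10.91 ± 0.24), the guidance genes Efnb2 (11.48 ± 0.22) and Sema3g (11.63 ± 0.19), and Gkn3, a marker of brain arteries (11.32 ± 0.28). Venous genes did so for 15 of 19, with Nr2f2 at 11.88 ± 0.15, Ephb4 at 9.19 ± 0.37, Tmem252 at 11.99 ± 0.22 and Il1r1 at 12.15 ± 0.25. All 17 capillary genes passed, among them Car4 (10.89 ± 0.27), Rgcc (11.41 ± 0.23) and Tbc1d4 (9.90 ± 0.28).

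Arterial genes leaned to wild type 3: 12 of the 25 above the line in any pool were highest there, against 26.2% of all genes. Cytl1 led, with 8.30, 7.69, 9.71, 6.39, 7.79 and 8.84 in wild type 1 to 6. Bmx read 9.60, 9.52, 9.92, 8.52, 9.20 and 9.36, and Stmn2, also expressed by neurons, 10.22, 9.87, 10.95, 9.58, 9.97 and 10.46. Of capillary genes, 11 of 17 were lowest in wild type 3, against 14.7%, but 3, with Car4 and Rgcc among them, were highest there. Pan-endothelial genes were often lowest in that pool as well (20 of 42). The mean of the capillary list moved by only 0.25 between pools. Spon1 ran from 9.75 in wild type 6 to 11.07 in wild type 1.

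Of 18 venous genes above the line in any pool, 8 varied 2-fold, against 30.8% of all genes, and 7 did so without wild type 4, against 15.6%. For Selp, the selectin stored for release on injury, the order of the pools is uncertain. Its brightest probe set ran from 6.71 in wild type 5 to 8.35 in wild type 4, and another from 5.49 in wild type 4 to 8.24 in wild type 5. Ch25h, which makes an oxysterol, ran from 8.63 in wild type 4 to 10.27 in wild type 3, and Lrg1 from 4.68 to 7.48 in the same pools. Ackr1, the chemokine scavenger of venules in other organs, stayed near the line at 5.38 to 6.55.

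Aplnr, the apelin receptor of veins and growing capillaries, was the most variable gene among those above the line in every pool. It read 9.56, 11.64, 7.56, 10.85, 11.22 and 9.58 in wild type 1 to 6, a 16.9-fold range. A second probe set gave 8.02, 10.30, 5.997, 9.16, 9.36 and 8.03 in the same order, with the same highest and lowest pools. Wild type 2, 4 and 5 were high, wild type 1 and 6 intermediate and wild type 3 low on both probe sets. Apln, its ligand, was below the line in every pool at 3.24 to 5.48, as were Esm1 and Kcne3, genes of the sprouting tip. Other genes of tip cells that resting vessels also use, such as Pdgfb (10.28 ± 0.26) and Adm (12.58 ± 0.08), were above it.

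The basement membrane was expressed broadly, with 27 of 30 genes above the line in all pools. Collagen IV was bright as Col4a1 (13.06 ± 0.10) and Col4a2 (12.80 ± 0.16), laminins as Lamc1 (11.99 ± 0.26), Lamb2 (11.39 ± 0.11), Lama4 (10.92 ± 0.24) and Lama5 (10.86 ± 0.25). Fn1, fibronectin, averaged 13.17 ± 0.07, Agrn 12.27 ± 0.20 and Nid1 11.90 ± 0.21. Integrin chains Itga1 and Itga6 averaged 12.55 ± 0.06 and 12.46 ± 0.12. Col15a1 and Lama1 were below the line in all pools. 13 of the 28 above the line were lowest in wild type 3, against 14.7% of all genes.

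The anticoagulant surface was bright: Thbd, thrombomodulin, at 12.96 ± 0.04, the plasminogen activator Plat at 12.48 ± 0.17 and protein S (Pros1) at 12.75 ± 0.04. F8, the clotting factor that liver endothelium makes, was below the line at 3.68 to 4.59. Ptgs2, the inducible enzyme of prostaglandin synthesis, read 11.11, 11.27, 12.22, 10.19, 11.44 and 11.27 in wild type 1 to 6, with wild type 4 low and wild type 3 high. Edn1, endothelin, averaged 12.32 ± 0.14, and its receptor Ednrb ran from 8.04 in wild type 4 to 10.003 in wild type 3. Among detoxifying enzymes Gsta4 (12.27 ± 0.22), Gstp1 (11.72 ± 0.18) and Ephx1 (11.40 ± 0.22) were bright, and Cyp1a1, which responds to aryl hydrocarbons, was below the line at 3.62 to 4.27.

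**Figure D2:**
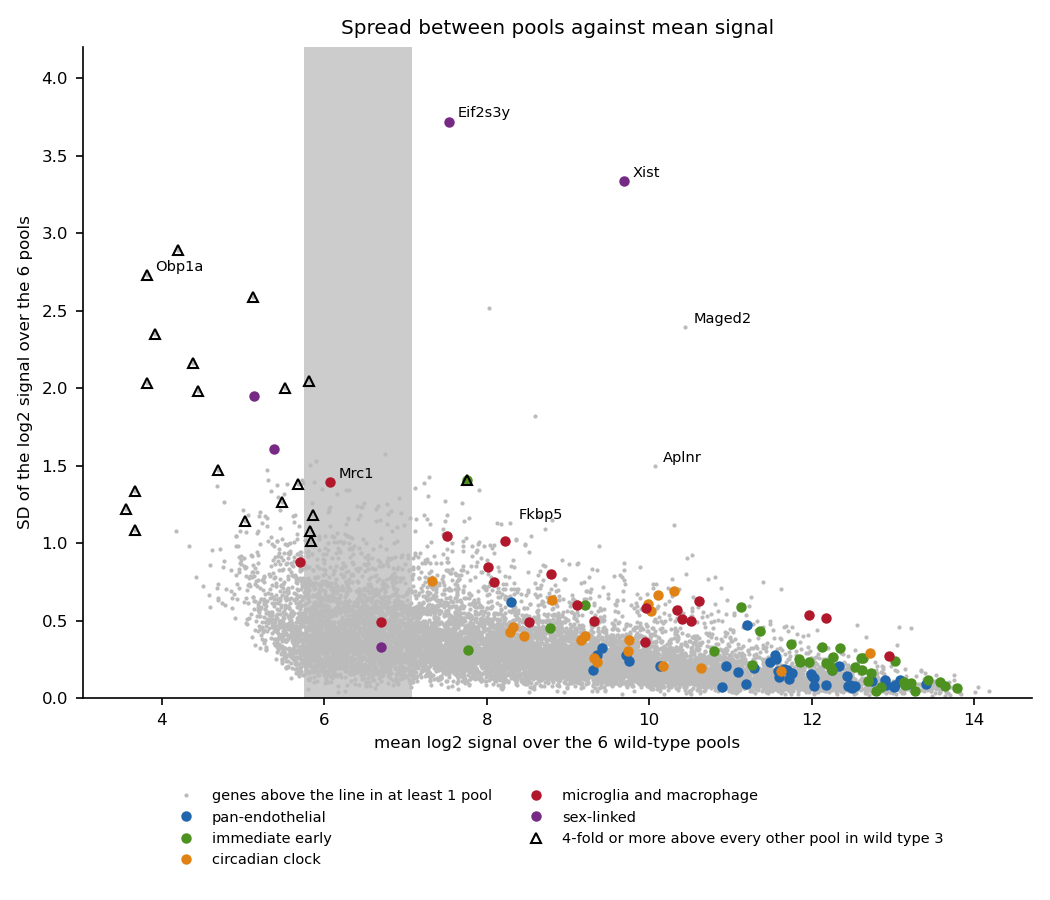
SD of the log2 signal over the 6 wild-type pools (vertical axis) against its mean (horizontal axis) for the 11884 genes above the background line in at least 1 pool (grey points), with members of 5 gene lists coloured and the genes raised only in wild type 3 as open triangles. The grey band is the background line of the 6 arrays. Pan-endothelial genes lie along the floor of the plot, macrophage genes above them, and the sex-linked genes Eif2s3y and Xist at the top.

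The immediate early genes, which answer stimuli with fast transcription, formed one of the brightest sets. Of 37 measured, 34 were above the line in all pools and 30 lay in the brightest 10.0%. Npas4 and Egr4, which serve mainly in neurons, were the ones below the line in every pool. Fosb averaged 12.61 ± 0.26, Jun 12.79 ± 0.05, Atf3 12.63 ± 0.26, Nr4a1 11.85 ± 0.25, Ier3 13.44 ± 0.12 and Klf4 13.22 ± 0.10. The pools differed by a common ordering. 23 of the 35 genes above the line were highest in wild type 3, against 26.2% of all genes, and 24 were lowest in wild type 1, against 6.81%.

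Egr3 showed this order at its widest among bright members, at 10.06, 11.23, 11.66, 10.91, 11.53 and 11.42 in wild type 1 to 6. Dusp2, a phosphatase of MAP kinases, read 8.03, 8.96, 9.42, 8.66, 8.77 and 8.80. Btg2, an antiproliferative gene, read 11.29, 11.94, 12.20, 11.46, 11.60 and 12.002, but a second bright probe set was highest in wild type 6, at 12.05, and lowest in wild type 4, at 10.98. Junb ran from 10.41 in wild type 1 to 11.31 in wild type 3, and Maff from 10.90 to 12.11 in the same pools. Fos itself moved by only 0.22, close to the top of the scale. Fosl1, a late member of the family, read 10.30 in wild type 3 and 6.16 to 8.02 in the others. The mean of the list spanned 0.57 over 6 pools and 0.34 without wild type 3. 5 of the 35 passed 2-fold, against 30.8% of all genes, and 5 did without wild type 4, against 15.6%. Of the 34 above the line in all pools, 4 did over the 6 pools, against 16.7%.

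Heat shock genes ran the other way. All 15 were above the line in every pool, with 9 highest in wild type 1 (22.5% of all genes) and 9 lowest in wild type 3 (14.7%). Hspa1a, the main inducible chaperone, read 12.03, 11.46, 9.95, 11.84, 11.76 and 11.41 in wild type 1 to 6. Its twin Hspa1b, nearly identical in sequence so that probes may not tell them apart, read 13.61, 13.15, 12.38, 13.54, 13.47 and 13.20, and Hsph1 13.35, 13.16, 12.39, 13.26, 13.18 and 12.99. Wild type 3 was the low pool for each, and the other 5 lay within 11.41 to 12.03 for Hspa1a. Cryab, a small heat shock protein, averaged 11.40 ± 0.25. Without wild type 3 the mean of the list spanned 0.32 in place of 0.50.

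Most inflammatory genes were above background in all pools, at unequal levels. Of 22, 17 were above the line in every pool, and 14 of the 21 above it in any pool varied 2-fold, against 30.8% of all genes. Without wild type 4, 12 did, against 15.6%. 13 were highest in wild type 3, against 26.2% of all genes, and 12 lowest in wild type 4, near the 50.1% of all genes. Il6, a cytokine, read 10.44, 11.08, 11.84, 9.75, 11.21 and 10.98 in wild type 1 to 6; Cxcl10, a chemokine for T cells, 10.02, 11.33, 11.82, 9.78, 11.06 and 10.85; and Ccl2, a chemokine for monocytes, 9.69, 10.98, 11.11, 8.999, 11.09 and 10.96. The adhesion molecules Icam1 and Vcam1 read 11.85 to 12.67 and 11.31 to 11.80, although a dimmer probe set of Vcam1 spanned 1.32, from 9.001 in wild type 4 to 10.32 in wild type 3. Selp, Sele and Ackr1 of the same list varied 2-fold. Sele, the selectin of activated endothelium, stayed near the line at 5.85 to 7.44, and Madcam1, the address of gut lymphocytes, below it.

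Of the interferon-inducible genes, 14 of 24 were highest in wild type 3, against 26.2% of all genes, and 18 lowest in wild type 4, against 50.1%. Iigp1, a GTPase against intracellular parasites, read 10.18, 10.93, 11.27, 8.81, 11.12 and 10.87 in wild type 1 to 6, and Ifit1 read 10.67, 10.65, 11.38, 9.66, 10.76 and 10.85. The list mean spanned 0.85 over 6 pools and 0.34 without wild type 4, and the members past 2-fold went from 10 to 3, against 30.8% and 15.6% of all genes. Markers of macrophages were lowest in the same pool, as given below, and their part in these genes was not tested.

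The list mean of hypoxia-response genes differed little between pools, by 0.28, and Slc2a1, Ddit4 (13.45 ± 0.07), Adm and Aldoa (12.48 ± 0.10) were steady. Of the 23 above the line in any pool, 5 varied 2-fold, against 30.8% of all genes. Without wild type 4, 4 did, against 15.6%. Pfkfb3, which speeds glycolysis, was one of the 5, at 9.80, 10.51, 11.30, 9.18, 10.35 and 10.28 in wild type 1 to 6. A dimmer probe set of it, near the line, moved by 0.75 and was lowest in wild type 2, at 5.95. Cell cycle genes were mostly near background: 7 of 22 were above the line in all pools. Mki67 read 6.18 to 7.55 and Cdk1 5.30 to 6.44, whereas Pcna, used also in DNA repair, averaged 12.23 ± 0.28.

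Some of the genes that glucocorticoids raise were low in wild type 5. Fkbp5, a chaperone of the glucocorticoid receptor, read 8.38, 8.32, 9.32, 8.60, 6.12 and 8.999 in wild type 1 to 6, so that wild type 5 was 9.18-fold under the highest pool and the other 5 lay within 8.32 to 9.32. Zbtb16 ran from 8.62 in wild type 5 to 9.96 in wild type 3, and Sult1a1, a sulfotransferase, read 9.77 in wild type 5 and 10.74 to 11.29 elsewhere. Tsc22d3 was also lowest there, at 11.40 against 11.64 to 12.06. Of the 15 genes, 6 were lowest in wild type 5, against 12.4% of all genes, 5 in wild type 4, against 50.1%, and 7 were highest in wild type 3, against 26.2%. The list mean was lowest in wild type 5, at 10.58, with 10.87 in wild type 4 as the next. Pdk4 was highest in wild type 5, at 11.89.

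Genes of the circadian clock differed between pools. Of 20 clock genes, 18 were above the line in all pools. Of the 19 above it in any pool, 10 varied 2-fold, against 30.8% of all genes, and 9 did without wild type 4, against 15.6%. With the lowest and the highest pool set aside, 1 of the 19 did, against 3.64% of all genes. In the clock, Arntl and Clock or its relative Npas2 bind E-box sequences and switch on Per, Cry and Nr1d genes and the factors Dbp, Tef and Hlf. The products of the Per and Cry genes shut the loop, so that Arntl and Dbp peak at opposite times of day. Dbp, Tef and Hlf act in turn through D-box sequences, which Nfil3 represses.

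Dbp read 11.21, 9.79, 10.48, 10.20, 9.55 and 9.45 in wild type 1 to 6, and its second probe set 9.49, 7.99, 8.65, 8.02, 7.51 and 7.46. Tef read 10.33, 9.84, 9.85, 9.80, 9.27 and 9.42 and Hlf 8.84, 8.18, 8.49, 8.56, 7.72 and 7.90. On these probe sets wild type 1 was highest and wild type 5 or 6 lowest for each of the 3 factors. The other probe set of Hlf was also highest in wild type 1, at 8.14, with wild type 6 lowest, at 6.86. For Tef a dimmer probe set above the line in every pool gave another order, 6.83, 6.86, 7.03, 7.53, 7.19 and 6.29, so that its order is uncertain. Per3 was likewise highest in wild type 1, at 9.74, 9.16, 8.78, 7.99, 8.25 and 8.89; a second probe set of Per3 above the line was highest in wild type 4, so its order is uncertain as well.

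Arntl ran the other way, with 9.03, 9.36, 9.18, 9.24, 9.79 and 9.37. Npas2 read 7.76, 8.22, 8.03, 8.25, 9.05 and 8.61, also lowest in wild type 1 and highest in wild type 5. Cry1 (8.95, 9.06, 9.56, 8.71, 9.67 and 8.97) and Nfil3 (8.91, 9.09, 9.67, 9.12, 9.73 and 8.75) peaked in wild type 5 too. Wild type 1 thus had the highest Dbp and Hlf, on both probe sets of each, and the lowest Arntl and Npas2, and wild type 5 had the highest Arntl and Npas2 and, with wild type 6, the lowest Dbp and Hlf.

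The repressors Nr1d1 (10.29, 9.84, 10.88, 10.26, 9.42 and 9.44) and Per2 (7.94, 7.48, 8.44, 6.54, 6.81 and 6.75) were highest in wild type 3, as was Per1 at 9.59. A dimmer probe set of Per2, above the line only in wild type 1 and 3, was highest in wild type 1, at 6.64 against 6.56. Per1, Per2 and Noct are also immediate early or stress-responsive genes. Noct, a phosphatase of nicotinamide cofactors, read 9.90, 10.47, 11.55, 9.52, 10.29 and 10.10, with the same high pool as the immediate early genes. Clock itself moved by 0.59 on its brightest probe set. Another, above the line in every pool, moved by 1.36, from 7.15 in wild type 4 to 8.51 in wild type 3. No source used here gives the time of day at which the retinas were collected.

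The start sites of 4 clock genes are shown because they carry the letters through which the loop is known to act. The windows run from 250 bases before to 50 after the RefSeq start on GRCm38.p6, read 5′ to 3′ on the gene's strand. The E-box CACGTG or the D-box TTATGTAA, searched on both strands, is in capitals.
Per3, chr4:151044616-151044915, minus strand: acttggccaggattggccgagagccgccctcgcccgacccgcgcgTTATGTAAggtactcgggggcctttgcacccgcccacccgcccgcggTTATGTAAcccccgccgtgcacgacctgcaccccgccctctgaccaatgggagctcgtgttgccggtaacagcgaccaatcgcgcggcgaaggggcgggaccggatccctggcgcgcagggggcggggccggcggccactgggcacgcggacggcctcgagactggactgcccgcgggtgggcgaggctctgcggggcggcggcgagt
Tef, chr15:81802423-81802722, plus strand: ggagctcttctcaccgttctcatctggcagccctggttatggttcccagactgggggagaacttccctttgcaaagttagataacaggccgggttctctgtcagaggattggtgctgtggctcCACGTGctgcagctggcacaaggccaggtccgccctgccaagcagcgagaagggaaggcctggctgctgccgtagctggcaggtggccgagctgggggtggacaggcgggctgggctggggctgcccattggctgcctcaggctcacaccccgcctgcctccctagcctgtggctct
Ciart, chr3:95882179-95882478, minus strand: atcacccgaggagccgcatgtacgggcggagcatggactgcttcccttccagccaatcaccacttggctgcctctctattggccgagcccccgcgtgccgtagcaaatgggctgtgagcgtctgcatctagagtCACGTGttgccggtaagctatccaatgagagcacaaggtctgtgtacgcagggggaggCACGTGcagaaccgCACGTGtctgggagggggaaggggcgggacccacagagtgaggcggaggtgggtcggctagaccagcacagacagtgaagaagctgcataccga
Per1, chr11:69098699-69098998, plus strand: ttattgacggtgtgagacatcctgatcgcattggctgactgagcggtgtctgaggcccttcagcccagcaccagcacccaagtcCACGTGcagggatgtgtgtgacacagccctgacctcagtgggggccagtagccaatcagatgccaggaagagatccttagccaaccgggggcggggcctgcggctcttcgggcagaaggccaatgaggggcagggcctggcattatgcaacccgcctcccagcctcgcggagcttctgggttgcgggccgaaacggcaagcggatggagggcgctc

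The window of Ciart, a clock repressor that read 9.34 to 10.15, held 3 E-boxes, those shown of Tef and Per1 held 1 each, and that of Per3 held 2 D-boxes. Tef and Per1 have a second RefSeq window each, which held 1 E-box for Tef and none for Per1. The E-box stood in a window of 5 of the 18 clock genes with a RefSeq window (27.8%) and of 8.09% of all 27025 genes. Among immediate early genes it stood in 7 of 29 (24.1%). For the D-box the shares were 1 of 18 (5.56%) and 1.11%. No window shown held both motifs. The windows of Dbp, Arntl, Npas2 and Nfil3 held neither, which says only that these letters are not in them. A match is a stretch of sequence and no measure of binding.

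**Figure D3:**
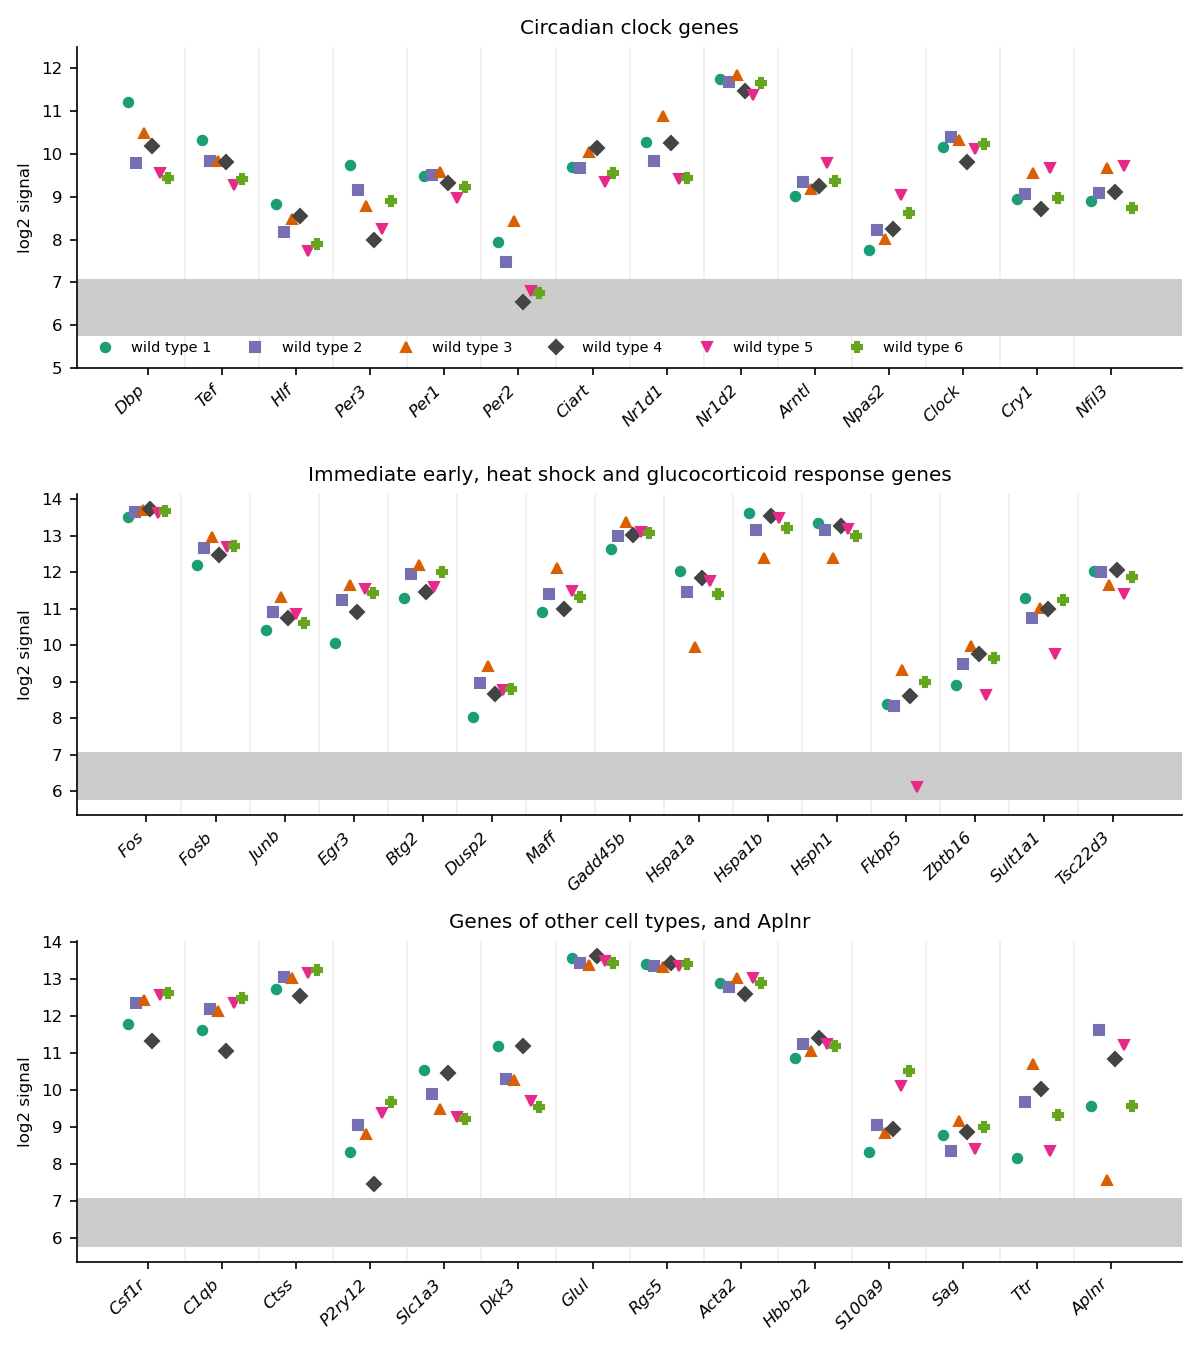
Log2 signal (vertical axis) of single genes in each of the 6 wild-type pools (1 symbol a pool), for clock genes (top), immediate early, heat shock and glucocorticoid response genes (middle) and genes of other cell types with Aplnr (bottom); the grey band is the background line of the 6 arrays. On the probe sets plotted, the brightest of each gene, wild type 1 is highest for Dbp, Tef and Hlf and lowest for Arntl and Npas2, wild type 3 is lowest for the heat shock genes, and wild type 5 lies apart for Fkbp5 at 6.12.

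The 30 genes with the largest SD over the pools, among the 11884, were of another kind. 4.08 on the log2 scale separated the highest and lowest pools of Aplnr, the only gene of the 30 above the line in every pool. The SD of the last of the 30 was 1.39 and that of the next gene 1.38. Sex-linked genes headed the ranking. Eif2s3y, on the Y chromosome, read 9.41, 9.78, 2.69, 10.29, 10.22 and 2.81 in wild type 1 to 6. Xist, the RNA that silences one X chromosome in females, read 11.84, 11.32, 11.86, 5.99, 4.88 and 12.27. Kdm5d (5.74, 6.56, 3.29, 6.30, 6.78 and 2.12), Uty (5.88, 6.70, 3.27, 6.56, 6.45 and 3.39) and Orly (8.77, 8.92, 4.93, 11.53, 8.82 and 5.23), all on the Y chromosome in RefSeq, followed Eif2s3y.

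Wild type 1 and 2 thus showed both Xist and Y-linked signals, wild type 3 and 6 Xist alone, and wild type 4 and 5 Y-linked genes with Xist at or below the line. A second probe set of Xist gave 9.69, 9.13, 10.67, 4.01, 3.46 and 10.74. This goes against the label of mixed sex for 4 of the 6 pools. The part of sex in the other differences between pools was not tested.

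A second group was high in wild type 3. At least 4-fold separated wild type 3 from the next highest pool for 20 genes, and 18 of these were below the line in all of the other 5 pools. Wild type 4 exceeded the next highest pool by 4-fold for 6 genes, and none of the other 4 pools did so for any gene. Obp1a, an odorant-binding protein, read 9.38 in wild type 3 and 2.55 to 2.99 elsewhere. Bpifb9b, of a family of secreted lipid-binding proteins of the airway and nose, read 10.39 and 3.80 to 4.38, and its second probe set showed the same. Further secreted proteins of the same kinds were Obp2a (8.49 against 3.47 to 3.74), Bpifa1 (8.70 against 2.79 to 3.09), Bpifb3, the lipocalins Lcn3 and Lcn11 (7.95 against 2.69 to 3.31), the major urinary protein Mup5 (8.73 against 3.11 to 4.14) and Wfdc18.

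Position on the chromosome was shared by part of this group: 9 of the 20 fell in 3 runs of neighbours in RefSeq, with members no more than 20 protein-coding genes apart. These were Obp1a, Gm14743 and 5430402E10Rik on chromosome X, Obp2a, Lcn3 and Lcn11 on chromosome 2, and Bpifb3, Bpifa1 and Bpifb9b elsewhere on chromosome 2. The rest included Rgr (7.35 against 3.07 to 5.03) and Rbp4 (5.86 against 3.005 to 3.41), which handle retinoids in the pigment epithelium, the cytokine Il23a (8.23 against 4.40 to 5.97), Cxcl14, Apoc1, Gm884 and Fosl1. For Sema3f and Dnm1 a second probe set was nearly flat, moving by less than 1 on the log2 scale. The source of these RNAs in wild type 3 was not tested.

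Some of the largest ranges rested on a single probe set. Maged2 read 5.59 in wild type 3 and 11.19 to 12.004 in the others, yet its second probe set gave 9.05, 9.19, 8.95, 9.20, 9.14 and 8.95. Tmprss2 read 4.92 in wild type 3 and 8.98 to 9.84 elsewhere. Mapk10 was low in wild type 5 only (2.90 against 5.76 to 6.96), and Cyp2e1 in wild type 4 only (3.75 against 6.68 to 8.36). Habp2, Rims1, Aff2, Prp2, Gm28453, Fancd2os and Ugt2b37 completed the 30 together with Mrc1 and Ccl7, macrophage and chemokine genes. Where a gene had a second probe set above the line, both had the same highest pool in 35.7% of 5457 genes and the same lowest pool in 43.7%. Among the 149 genes past 4-fold the shares were 54.4% and 57%.

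**Figure D4:**
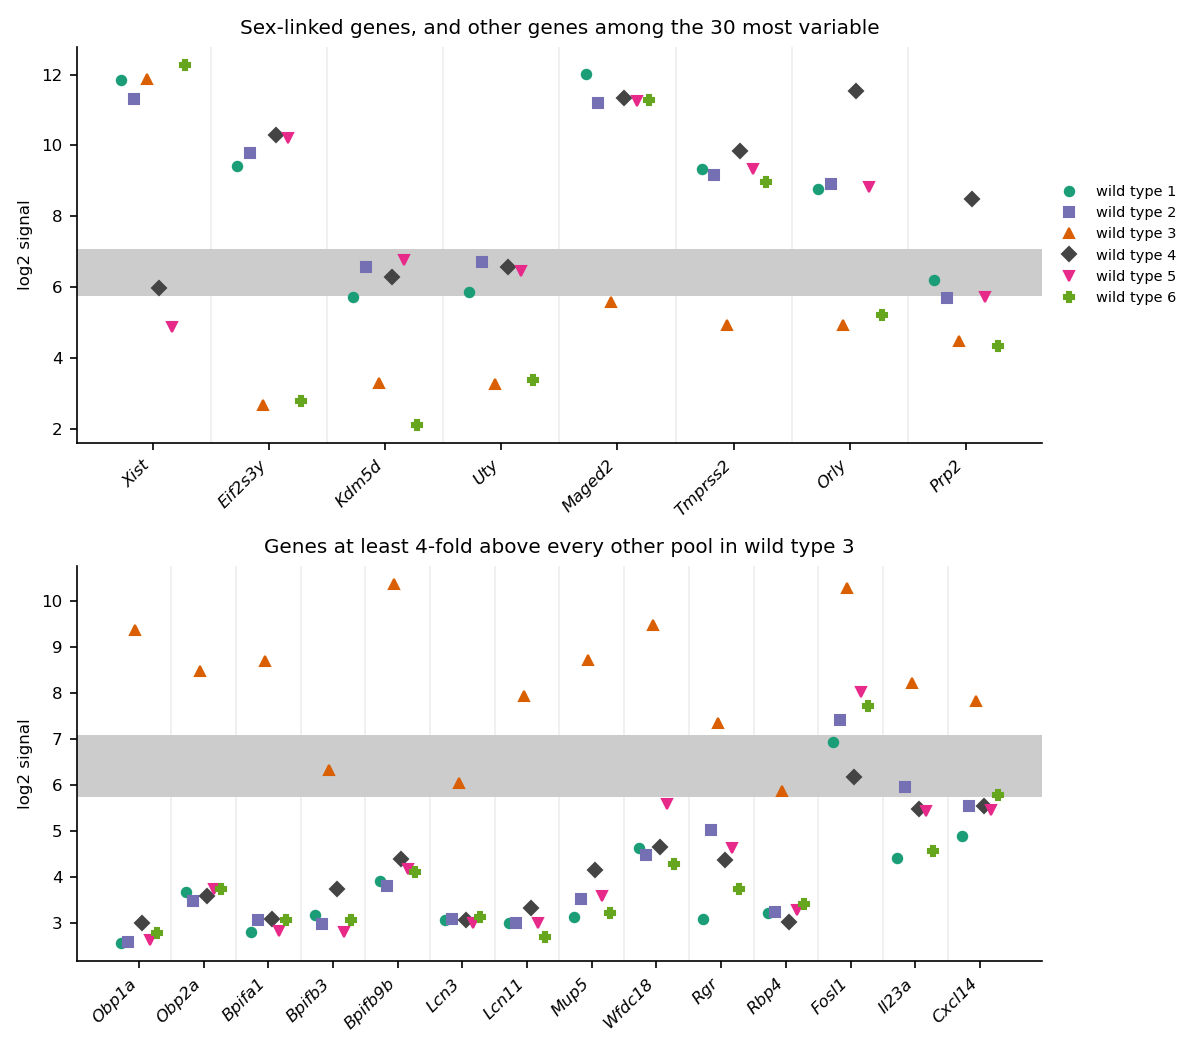
Log2 signal (vertical axis) in each of the 6 wild-type pools (1 symbol a pool) of sex-linked genes and 3 more of the 30 most variable genes (top), and of 14 genes at least 4-fold above every other pool in wild type 3 (bottom); the grey band is the background line of the 6 arrays. Eif2s3y is at 2.69 and 2.81 in wild type 3 and 6, and Obp1a at 9.38 in wild type 3 alone.

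Ranked over the 5 pools other than wild type 4, and only over genes above the line in all of them, the 30 most variable genes were a different set. Aplnr led again with an SD of 1.62, followed by Fosl1 and Fkbp5. The genes named below are a selection of the other members and not the next in rank. Stx11, a syntaxin of immune cells, read 6.45, 7.69, 9.66, 6.57, 7.71 and 6.99 in wild type 1 to 6. Tfpi2, a protease inhibitor of matrix, read 7.79, 9.01, 10.65, 7.23, 8.60 and 8.65, and Ttr, the retinoid and thyroxine carrier of the pigment epithelium, 8.17, 9.68, 10.72, 10.03, 8.36 and 9.32. Ttr had a second probe set with the same highest and lowest pools. Clec7a, a receptor of myeloid cells, ran from 6.64 to 9.28 over the 5 pools and Saa1, an acute-phase protein, from 6.22 to 8.19. Cytl1, Hspa1a and S100a9 were in this group too. The 2 rankings of 30 shared 2 genes, Aplnr and Fosl1, but they differ in the genes admitted as well as in wild type 4. Of the first 30, 22 stayed when wild type 4 was left out. The second 30 shared 12 genes with the 30 most variable among genes above the line in all 6 pools.

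**Figure D5:**
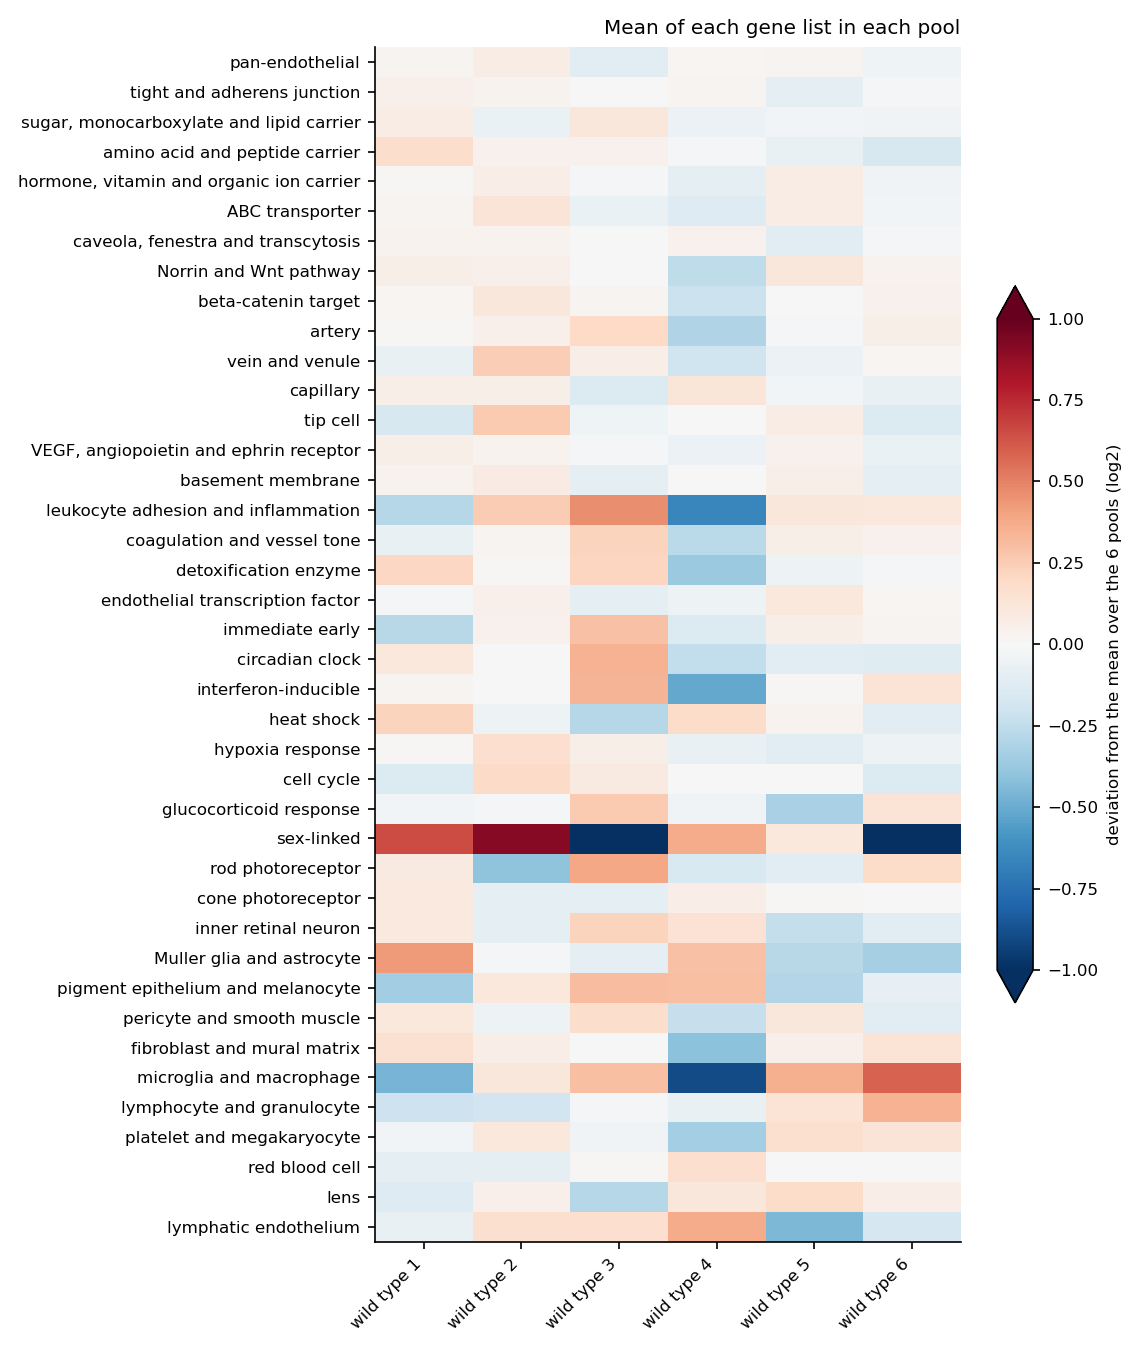
Mean log2 signal of each of 40 gene lists in each of the 6 wild-type pools, as the deviation from the list's mean over the pools (colour, log2, with values beyond ±1 at the ends of the scale). Pan-endothelial, junction and carrier lists are nearly even, macrophage genes range from 8.14 in wild type 4 to 9.63 in wild type 6, and Muller glia genes are highest in wild type 1.

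Most genes of cells that touch the vessel wall were above background in all pools. In bulk RNA, fewer cells of a type and less RNA per cell cannot be told apart. Pericyte and smooth muscle genes were above the line in all pools for 16 of 20, and 11 were in the brightest 10.0%. Rgs5 averaged 13.38 ± 0.05, Acta2, the actin of smooth muscle, 12.88 ± 0.16, Tagln 12.89 ± 0.20, Notch3 12.12 ± 0.12 and Pdgfrb 11.75 ± 0.21. Of these genes, 3 of the 19 above the line in any pool varied 2-fold, against 30.8% of all genes. Without wild type 4, 1 did, against 15.6%. Fibrous collagens were also above the line, with Col3a1 at 11.61 ± 0.33 and Col1a1 at 10.69 ± 0.46, whereas Lum and Dpt, of fibroblasts, were not above it in any pool.

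Microglia and macrophage genes were the most uneven of the cell types. 13 of 21 were above the line in every pool, and 18 of the 20 above it in any pool varied 2-fold, against 30.8% of all genes. Without wild type 4, 10 did, against 15.6% of all genes, and 8 did with the lowest and highest pool set aside, against 3.64%. 14 were highest in wild type 6, against 11.1% of all genes, and 18 lowest in wild type 4, against 50.1%.

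Csf1r, the growth factor receptor of macrophages, read 11.80, 12.35, 12.43, 11.32, 12.58 and 12.62 in wild type 1 to 6, the complement gene C1qb 11.61, 12.20, 12.14, 11.06, 12.34 and 12.49, the protease Ctss 12.72, 13.06, 13.03, 12.54, 13.16 and 13.24 and P2ry12, a receptor of microglia, 8.34, 9.06, 8.80, 7.47, 9.38 and 9.68. Wild type 1 and 4 were the low pools for each of these genes and wild type 6 the highest, though wild type 5 was the highest on dimmer probe sets of Csf1r. Mrc1, of perivascular macrophages, was below the line in wild type 1 at 3.74 and reached 7.42 in wild type 2. Itgam was below the line in every pool.

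Muller glia and astrocyte genes were above the line in all pools for 16 of 18. 11 of 17 were highest in wild type 1, against 22.5% of all genes, and 7 lowest in wild type 6, against 10.3%. Rlbp1, the retinal-binding protein of Muller cells, read 10.84, 10.25, 10.63, 11.001, 10.11 and 10.005 in wild type 1 to 6, Aqp4, the water channel of end feet, 10.03, 9.24, 8.90, 10.13, 8.38 and 8.50, and Dkk3 11.20, 10.30, 10.27, 11.19, 9.72 and 9.54. Glul, which glia use to make glutamine, was nearly even at 13.39 to 13.64. Wild type 1 and 4 were the high pools for Rlbp1, Aqp4 and Dkk3, and the low ones for the macrophage genes above.

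Genes of neurons were dimmer. Rod genes were above the line in all pools for 6 of 16, against 45.2% of all genes, and in at least 1 pool for 13, against 65.3%. The defining Nrl (4.29 to 6.12), Pde6a (2.79 to 3.13) and Prph2 (2.82 to 3.88) were near or below it. Sag, arrestin, read 8.79, 8.36, 9.17, 8.85, 8.42 and 8.99 in wild type 1 to 6. No cone gene was above the line in all pools. Among genes of inner neurons, Rbpms, also expressed in smooth muscle, and Sncg averaged 10.39 ± 0.15 and 9.90 ± 0.46, and Gad1, Slc17a6 and Trpm1 were below the line in every pool.

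Red cell RNA was present, with Hba-a2 at 11.34 to 11.59 and Hbb-b2 at 10.86 to 11.41. S100a9, of neutrophils, read 8.33, 9.04, 8.84, 8.95, 10.12 and 10.51 in wild type 1 to 6, and S100a8 followed it, also highest in wild type 6. No gene of T cells, B cells or platelets was above the line in all pools, nor were the defining pigment cell genes Rpe65, Tyrp1 and Pmel, which were below it in every pool. Tyr, of melanin synthesis, passed the line in wild type 4 alone, at 7.52. Lens genes were below the line but for 3 of 16. Lymphatic Lyve1 read 4.79 to 6.70, Prox1, which retinal glia also express, 8.38 to 8.74, and Reln 4.34 to 6.47.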

How the data were processed

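For 45101 probe sets the authors deposited log2 signals; the submitters' processing notes name RMA, whose version and settings were not given in the sources used here. RMA subtracts background, equalizes the arrays and summarizes each probe set. Biotin-labelled total RNA was hybridized, per the labels. The number of arrays limits the precision.

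Probe sets were named from the platform's table: 34958 carried 1 symbol, 932 several and 9211 none, and only the first kind was used. Each of 18194 genes was taken from its brightest probe set, on average over the 6 pools (9012 genes had several). A gene was above the line where it exceeded the 95th percentile of the 109 silent-family genes in that array. Spread was the highest minus the lowest pool, called at 2-fold, and the SD ranked genes.

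Named genes were the 4 markers, the 30 brightest, the 30 most variable, the 10 steadiest and members of 40 lists written from general knowledge. Members and lists were chosen with earlier results of these data known. The genes 4-fold apart in a single pool, the ranking and list counts without wild type 4 and without wild type 3, and the neighbours on chromosomes were added after the values were seen. The computation of spread was tested on simulated data. Python 3.11.15, pandas 2.3.3 and numpy 2.4.6 were used. Motifs were searched in RefSeq promoter windows (GRCm38.p6). No contrast and no test was made, since the arrays form a single group.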

Additional observations from a re-analysis of the deposited data

Results flagged for a closer look

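For each gene named above and each gene list, the gap from the highest or the lowest pool to its neighbour was divided by the range of the 6 pools, and a pool was taken as set apart where this share was above 0.625. Chance alone sets a pool apart in about 1 of 20 cases. Of 383 genes and lists, 49 met the criterion, but many of the genes were named because they vary. The share is given in brackets, with no explanation. Wild type 3 stood apart on the high side for 18 genes: 5430402E10Rik (0.861), Apoc1 (0.743), Bpifa1 (0.949), Bpifb3 (0.734), Bpifb9b (0.912), Cxcl14 (0.7), Dnm1 (0.664), Gad1 (0.735), Gm14743 (0.918), Gm884 (0.713), Lcn11 (0.881), Lcn3 (0.958), Mup5 (0.817), Obp1a (0.934), Obp2a (0.948), Rbp4 (0.859), Sema3f (0.783) and Wfdc18 (0.75). It stood apart on the low side for 8, among them 3 heat shock genes: Hspa1a (0.705), Hspa1b (0.629), Hsph1 (0.626), Maged2 (0.873), Nrp1 (0.666), Pde6a (0.722), Slc39a10 (0.667) and Tmprss2 (0.825).

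Wild type 4 was the low pool for Abcc1 (0.695), Cyp2e1 (0.637), Ehd2 (0.754), the mean of the list Norrin and Wnt pathway (0.713), the mean of the list beta-catenin target (0.667) and the mean of the list fibroblast and mural matrix (0.711). The same pool was high for Abcc2 (0.784), Cav3 (0.741) and Ndp (0.642), all of them below the background line. Wild type 5 was low for Fkbp5 (0.688), Il1r1 (0.673), Lyve1 (0.644), Mapk10 (0.704), Sult1a1 (0.638) and Tbc1d4 (0.667). It was high for Pdgfrb (0.746), a marker of pericytes that read 12.17 there and 11.59 to 11.74 in the other pools. A second bright probe set of Pdgfrb did not set wild type 5 apart, with 11.79 there and 11.84 in wild type 1, the highest. Wild type 1 was high for Chmp5 (0.665) and Fcgrt (0.718) and low for Edn1 (0.75). Wild type 2 was high for Apln (0.629), below the line. Wild type 6 was high for B2m (0.647) and Wif1 (0.744) and low for Adipor1 (0.688).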

How the results depend on the processing

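The alternatives were a second quantile normalization, centring on array medians, the mean of all probe sets, the probe set brightest over all 15 arrays, leaving out cross-hybridizing probe sets (_x_at and _s_at), another line, another measure of spread, and leaving out each pool. The 8227 genes above the line in all pools became 8228 to 10039 when 1 pool was left out, with the highest number without wild type 4. They fell to 5499 with the line at the 99th percentile of the silent genes and to 6747 with the mean of all probe sets. The 3665 genes past 2-fold became 2375 with the line at the 99th percentile of the silent genes, 432 between the second lowest and second highest pool, and 1856 to 3451 without 1 pool, with 1856 without wild type 4. Of the 30 most variable genes, 8 stayed by the range between the second lowest and second highest pool and 16 to 27 when a pool was left out, with 16 without wild type 3. Of the 30 brightest, 19 stayed with the mean of all probe sets and 23 without _x_at and _s_at probe sets. When a pool was left out, 28 to 30 stayed. The gaps between pools in the 40 list means moved by less than 1 SD over the pools in 411 of 440 combinations of list and setting, and the ranges of the 343 genes named did so in 3402 of 3764. The cause of these changes was not tested, except that fewer pools give smaller ranges and that wild type 4 set the higher line. Signals near the line rest on background, and signals above about 13 are compressed, so that small ranges of the brightest genes are a lower limit on their spread. No paired analysis was possible because the arrays belong to 1 group.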
